A study of Rattus norvegicus with 15 samples.

Results

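The genes described here encode the ligands, binding proteins, receptors and SMAD proteins of the transforming growth factor beta (TGF-beta) family, which includes the activins, inhibins and bone morphogenetic proteins (BMPs). They were taken by symbol from the array's annotation, as every probe whose gene is Inha or Nog, starts with Inhb, Tgfb, Acvr, Smad, Fst or Grem, or is Bmp or Gdf followed by a digit (for Bmp, also an r). The choice gave 38 genes, of 4153 on the array, with 40 of its 5088 probes, of which 4423 carried 1 gene symbol. RNA came from dissociated cells of L4 and L5 dorsal root ganglia (DRGs) of juvenile rats, cultured with 1.5 mM dibutyryl cAMP (dbcAMP, a form of cAMP that enters cells) for 1, 3, 6, 12 or 18 h, and from cultures kept in medium alone. Each of the 15 arrays, 3 at every time, carried both RNAs, with dbcAMP RNA in Cy5 and control RNA in Cy3. Dishes were coated with poly-L-lysine or with myelin, and which coating each array stands for is not given. The first time is labelled 1 h for each sample and 0 h in the treatment protocol.

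Ligands of this family bind a complex of type I and type II receptor kinases, which phosphorylate receptor-regulated SMADs. Smad2 and Smad3 act after TGF-beta and activin, Smad1, Smad5 and Smad9 act after BMPs, Smad4 is the shared partner, and Smad7 inhibits the pathway. Follistatin, gremlin and noggin bind ligands outside the cell and block them. Activin A, a dimer of the subunit that Inhba encodes, is known to raise the neuropeptide CGRP in sensory neurons, and BMP signalling through Smad1 is known to promote axon growth of DRG neurons. Inhba and Inha are also known as genes that cAMP induces in granulosa cells of the ovary.

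Every value is a log2 ratio of dbcAMP over control on 1 array, so 0 is equal signal and a positive value is a higher signal in dbcAMP cells. A ratio gives no level, so neither the amount of a transcript nor the presence of a cell type could be checked, and the arrays of a mixed culture cannot tell fewer cells of a type from less RNA per cell. Dyes were never swapped, so a dye bias of a probe cannot be told apart from the treatment within a time. Where such a bias is constant, it cancels in a difference between times. Array medians were close to equal signal (ratios of 0.997 to 1.02). Log2 ratios were spread more widely on 6 arrays (SD of 0.627 to 0.703 for array 3 of 6 h, arrays 1 and 2 of 12 h and all arrays of 18 h) than on the remaining 9 (SD of 0.357 to 0.434). All 40 probes had a ratio on every array. One limma model of the 15 arrays tested the mean of each time against 0, with Benjamini-Hochberg adjustment over every probe tested. A probe with an adjusted p under 0.05 is called higher or lower. Whether arrays of the same time stand for separate cultures is not stated, and the p-values therefore measure only the spread between arrays. The model took 1 spread per probe over all 15 arrays, so a p-value does not rest on the SD printed beside it. For the wide arrays of 18 h that common spread can be too small and the p-values too low. For the narrow arrays it can be too large.

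Of the 40 probes, 12 were called at 1 or more times and 28 at none. The share of all probes called at 1 or more times was not counted. Most calls of the limma model were at 18 h, where the activin and inhibin genes Inhba and Inha and the activin antagonist Fst were higher, and Inhbe, Acvr1c, Tgfb3, Bmp7, 1 probe of Tgfb2, Smad2, Smad3 and Smad7 were lower. With arrays scaled to a common spread instead, 5, 4, 2, 2 and 4 of the 40 were called at 1, 3, 6, 12 and 18 h. Over the array that scaling called 322, 442, 275, 256 and 422 probes. In the unscaled fit, 1 of 40 (2.50%), Smad3, was lower at 1 h, against 1.60% lower and 0.732% higher among all probes tested. At 3 h no probe of the 40 was called by limma, against a background of 0.931% higher and 1.94% lower. An unadjusted p under 0.05 by limma was reached by 5 of the 40 and by 517 of all 5050 probes tested. The methods' t-test, a one-sample test on the 3 arrays of a time, called none at 3 h after adjustment. It gave 9 of the 40 an unadjusted p under 0.05, against 758 of 5050 among all probes. At 6 h Inhba was higher and Grem1 lower (2.50% each), where 1.84% of all probes were higher and 2.35% lower. At 12 h Inhba was higher (2.50%) and Tgfb2, Tgfb3 and Bmp7 were lower (7.50%), against 3.81% higher and 4.77% lower over the array. At 18 h, 3 of 40 (7.50%) were higher and 8 of 40 (20.0%) were lower, while 10.6% of all probes were higher and 11.3% were lower. The share of higher calls at 18 h was below that of the array and the share of lower calls above it. Probe names give a plate number, and 27 of the 40 probes came from plates 36 to 53. On those plates 3.53% of all probes were higher at 18 h and 23.2% lower, against 14.2% and 5.43% on plates 1 to 35. The median over the 40 probes was -0.11 at 18 h, against 0.01 over all probes, and it lay between -0.12 and 0.02 at the earlier times.

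**Figure D1:**
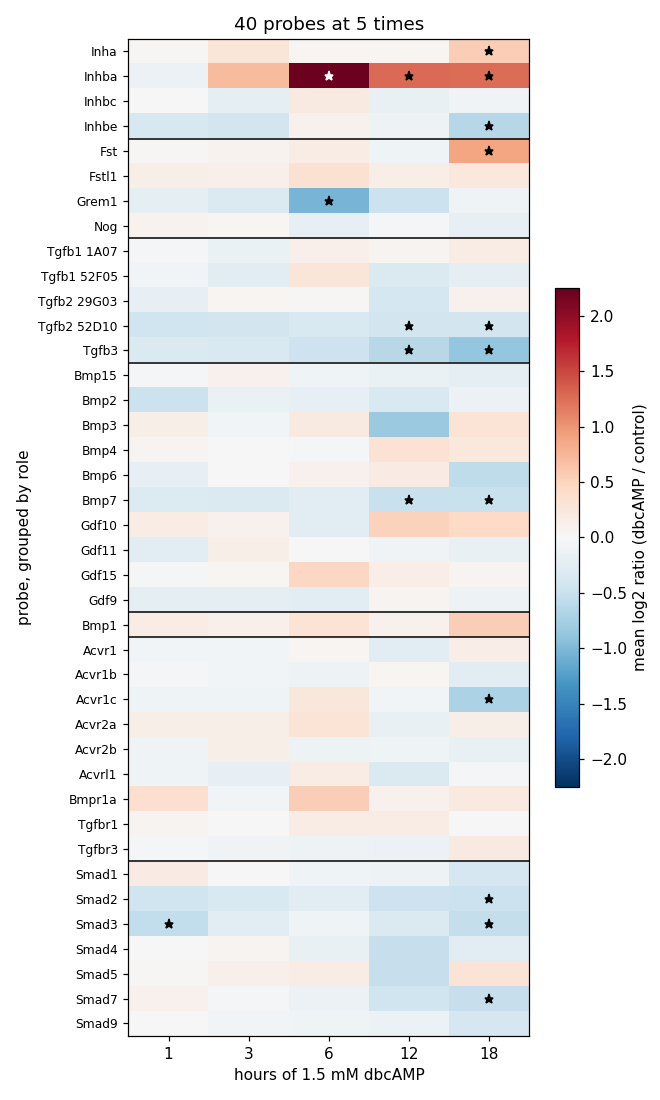
Mean log2 ratio (dbcAMP over control, colour) of the 40 probes (rows, grouped by role with lines between groups) at 1, 3, 6, 12 and 18 h (columns), each a mean of 3 arrays. Stars mark an adjusted p under 0.05; Inhba at 6 h, at 2.20, is the highest mean plotted and Grem1 at 6 h, at -1.04, the lowest.

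Inhba, which encodes the beta A subunit of activin A, had the highest ratio of all 40 probes at 3, 6, 12 and 18 h. Its log2 ratios were 0.01, 0.09 and -0.50 at 1 h, 1.14, 0.65 and 0.38 at 3 h, and 2.29, 2.37 and 1.94 at 6 h. They were 1.62, 0.88 and 1.32 at 12 h and 1.65, 0.85 and 1.24 at 18 h. All 12 arrays from 3 h on lay above 0 and above the highest array of 1 h. The share of all probes that did so was not counted. At 6 h the mean of 2.20 ± 0.23 (SD, n = 3) was a 4.60-fold higher signal in dbcAMP cells (adjusted p = 2.38e-05), and it ranked 4 from the top of 5058 probes. The mean was 1.27 ± 0.37 at 12 h (SD, n = 3, adjusted p = 0.00133) and 1.25 ± 0.40 at 18 h (SD, n = 3, 2.37-fold, adjusted p = 0.000464). At 3 h, with a mean of 0.72 ± 0.39 (SD, n = 3), it missed the threshold (adjusted p = 0.0653). With arrays scaled to a common spread, the 18 h mean was 0.80 (adjusted p = 0.108).

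Differences between times carry no constant dye bias, and Inhba had the largest one among the 40 probes. The rise at 6 h over 1 h was 2.34 (SE 0.27, adjusted p = 0.00129), in a comparison where 0.139% of all probes were called in either direction. At 12 h minus 1 h the difference was 1.41 (SE 0.27, adjusted p = 0.0498), with 0.300% of all probes called, and at 18 h minus 1 h it was 1.38 (SE 0.27, adjusted p = 0.0161), with 2.74% called. The mean at 18 h was 0.95 below that of 6 h, a difference of -0.95 that did not pass (SE 0.27, adjusted p = 0.0755). Of the 40 probes, Inhba alone was called in the differences of 6, 12 and 18 h against 1 h. The 18 h minus 1 h difference was 1.25 without the arrays numbered 1 (adjusted p = 0.12) and 1.20 without those numbered 3 (adjusted p = 0.117). The 12 h minus 1 h difference was 1.31, 1.71 and 1.20 without the arrays numbered 1, 2 and 3 (adjusted p = 0.438, 0.0956 and 0.25).

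The start sites of Inhba and Inha are shown because both genes were higher in dbcAMP cells and both are known cAMP targets. Windows of 250 bases before and 50 after the start of RefSeq genes (GRCr8) were searched on both strands for the cAMP response element TGACGTCA, for the same element with any base in place of the first C (TGANGTCA), and for the shorter TGACG. A match to TGACGTCA is also a match to the other motifs. Of the 38 genes, 32 were searched, with 34 windows in all, and Acvr1, Acvrl1, Bmp1, Bmp2, Bmp7 and Fst were not. The window of Inhba is at chr17:53804459-53804758 on the minus strand and that of Inha at chr9:84442859-84443158 on the plus strand. Capitals mark the TGANGTCA matches in Inhba and the TGACG match of the other strand in Inha.
Inhba: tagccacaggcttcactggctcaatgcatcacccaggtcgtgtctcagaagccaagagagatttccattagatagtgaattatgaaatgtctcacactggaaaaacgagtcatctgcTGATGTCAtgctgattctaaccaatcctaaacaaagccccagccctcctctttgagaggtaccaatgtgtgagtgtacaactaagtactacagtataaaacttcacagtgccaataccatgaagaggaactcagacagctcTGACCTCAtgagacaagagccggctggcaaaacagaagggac
Inha: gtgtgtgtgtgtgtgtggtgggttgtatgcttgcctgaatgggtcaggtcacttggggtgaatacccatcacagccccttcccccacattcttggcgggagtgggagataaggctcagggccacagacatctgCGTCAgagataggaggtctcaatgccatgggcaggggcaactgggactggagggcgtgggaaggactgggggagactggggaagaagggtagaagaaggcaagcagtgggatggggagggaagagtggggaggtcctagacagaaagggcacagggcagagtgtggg
In Inhba, TGATGTCA begins 133 bases before the start and TGACCTCA, a match on the other strand, at base 9 after it. In Inha, CGTCA begins 117 bases before the start. TGACGTCA was in 0 of 34 windows, against 1.83% of 33469 RefSeq windows, and TGANGTCA was in 1 of 34 (2.94%), that of Inhba, against 10.2%. TGACG was in 9 of 34 (26.5%), against 21.2%: Acvr2a, Bmp6, Gdf10, Gdf11, Inha, Smad1, Smad3, Smad9 and Tgfb1. These matches are letters in a window and say nothing about binding.

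Of the other subunits, Inha and Inhbe were called at 18 h and at no other time. Inha encodes the alpha subunit, which pairs with a beta subunit to make an inhibin. Its log2 ratios at 18 h were 0.49, 0.99 and 0.18, all above 0, and the mean was 0.56 ± 0.41 (SD, n = 3, adjusted p = 0.017). Its means from 1 to 12 h lay between 0.02 and 0.28. The differences of 18 h from earlier times did not pass for Inha. They were 0.54 against 1 h, 0.27 against 3 h, 0.52 against 6 h and 0.51 against 12 h (adjusted p = 0.219, 0.574, 0.21 and 0.291). The mean of Inha was 0.59 when array 1 of 18 h was left out (adjusted p = 0.0525) and 0.34 when array 2 was (adjusted p = 0.16). Inhbe, the beta E subunit best known from liver, was lower at 18 h, with -0.24, -0.77 and -0.93 and a mean of -0.65 ± 0.36 (SD, n = 3, adjusted p = 0.00318). Inhbe was also below 0 on all arrays of 1 h and 3 h, with means of -0.36 and -0.42 that did not pass (adjusted p = 0.275 and 0.142), and its mean was 0.10 at 6 h. With arrays scaled to a common spread, Inhbe was also called at 1 h and 3 h. Over the array 322 of 5055 and 442 of 5050 probes were called then. The 18 h minus 1 h difference of Inhbe, -0.29, did not pass (SE 0.18, adjusted p = 0.481). The difference of 18 h minus 6 h was -0.75 for Inhbe (SE 0.18, adjusted p = 0.0498), in a comparison where 2.74% of all probes were called. It was -0.70 without the arrays numbered 2 (adjusted p = 0.148) and -0.50 without those numbered 3 (adjusted p = 0.216). Inhbc, the beta C subunit, had means between -0.21 and 0.20 and was called at no time.

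**Figure D2:**
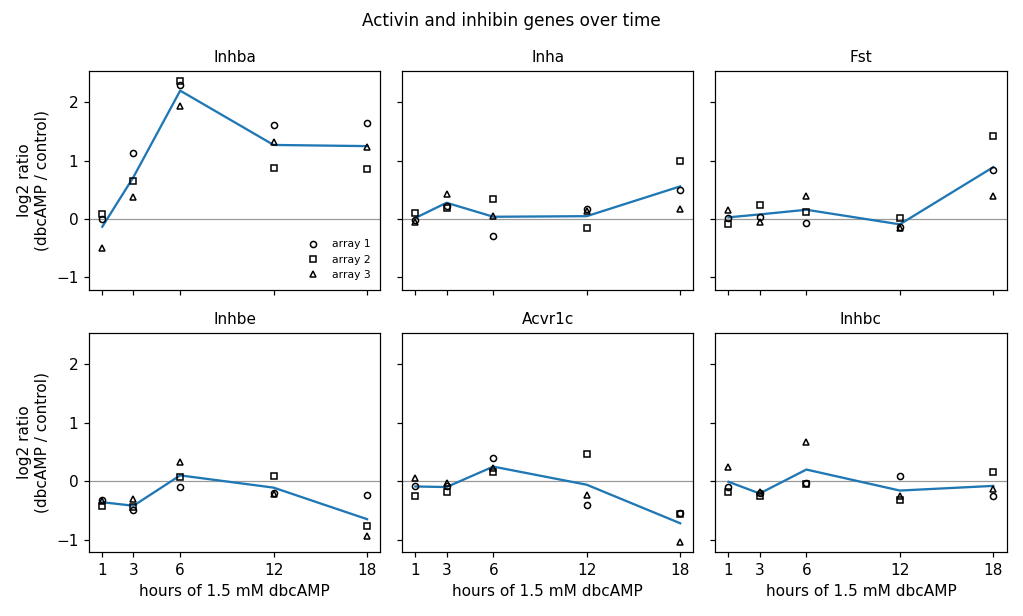
Log2 ratio (dbcAMP over control) of 6 genes against hours of 1.5 mM dbcAMP; symbols are single arrays, 3 per time, and the line joins the means. Inhba reaches 1.94 to 2.37 at 6 h, Fst and Inha lie above 0 on every array at 18 h, and Acvr1c and Inhbe lie below 0 on every array at 18 h.

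Among the secreted antagonists, Fst was called higher at 18 h and at no earlier time. Fst encodes follistatin, which binds activins and keeps them from their receptors. At 18 h its log2 ratios were 0.84, 1.43 and 0.39, with a mean of 0.89 ± 0.52 (SD, n = 3, 1.85-fold, adjusted p = 0.00136). All arrays of 18 h but array 3 lay above every earlier array, and array 3, at 0.39, lay just under the highest of them, 0.40 at 6 h. Means at 1, 3, 6 and 12 h were 0.03, 0.08, 0.16 and -0.09. The differences of 18 h from earlier times did not pass, at 0.86 against 1 h (SE 0.22, adjusted p = 0.0598), 0.81 against 3 h (SE 0.22, adjusted p = 0.0674), 0.73 against 6 h (SE 0.22, adjusted p = 0.0968) and 0.98 against 12 h (SE 0.22, adjusted p = 0.0617). Fstl1, a secreted protein related to follistatin, had means between 0.12 and 0.35 at the 5 times and was not called.

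Grem1 encodes gremlin, a BMP antagonist. It lay below 0 on all 15 arrays, with -0.64, -0.41 and -2.07 at 6 h and -0.06, -0.07 and -0.18 at 18 h. At 6 h its mean was -1.04 ± 0.90 (SD, n = 3, adjusted p = 0.02). Array 3 stood far below the others there, and the mean of arrays 1 and 2 alone was -0.52, with an adjusted p of 0.0682. Nog encodes noggin, another BMP antagonist. On the same array 3 of 6 h Nog stood at -0.97, against 0.18 and 0.24 on the other arrays of that time, and its mean was -0.18. Both probes come from plate 43, a set of 96 probes whose median was -0.42 at 6 h and -0.51 at 18 h. After the plate medians were subtracted, Nog was at 0.28 at 6 h (adjusted p = 0.316) and Grem1 at 0.43 at 18 h (adjusted p = 0.0563), each on the other side of 0.

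Of the TGF-beta ligands, Tgfb3 and 1 probe of Tgfb2 were called lower than control at 12 h and 18 h, and neither was called in a difference between times. At those times 4.77% and 11.3% of all probes were lower. Tgfb3, like Tgfb1 and Tgfb2, encodes a ligand of the receptors Tgfbr1 and Tgfbr2. Its log2 ratios were -1.15, -0.10 and -0.63 at 12 h and -0.57, -1.02 and -1.01 at 18 h. The 18 h mean of -0.87 ± 0.26 (SD, n = 3, 0.548-fold, adjusted p = 0.00285) was the lowest of the 40 probes at that time as deposited, and -0.54 after the plate medians were subtracted, where Inhbe, Bmp7 and Acvr1c were at -0.60 each. The 12 h mean was -0.63 ± 0.52 (SD, n = 3, adjusted p = 0.0387), and -0.37 without array 1 (adjusted p = 0.293) and -0.63 without array 3 (adjusted p = 0.0887). Means at 1, 3 and 6 h were -0.32, -0.34 and -0.47, and the difference of 18 h minus 1 h, -0.55, did not pass (SE 0.24, adjusted p = 0.273).

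The 2 probes of Tgfb2 gave unequal values. Probe 52D10 had means between -0.45 and -0.34 at the 5 times. Its values were -0.59, -0.23 and -0.41 at 12 h and -0.59, -0.27 and -0.36 at 18 h, with means of -0.41 ± 0.18 and -0.41 ± 0.16 (SD, n = 3, adjusted p = 0.0436 and 0.0204). Probe 29G03 of the same gene had 0.05, -0.09 and 0.35 at 18 h, with a mean of 0.10, and was called at no time. For 52D10 the 18 h mean was -0.32 without array 1 (adjusted p = 0.14) and -0.43 without array 3 (adjusted p = 0.0559), and the 12 h call was lost when any 1 array of that time was left out (-0.32, -0.50 and -0.41, adjusted p = 0.245, 0.0535 and 0.0978). The probes of Tgfb1 were called at no time, with 18 h means of 0.16 for 1A07 and -0.20 for 52F05, which was at 0.13 after the plate medians were subtracted.

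Of 10 BMP and GDF ligands, 1 was called, Bmp7, a BMP known for its part in kidney and eye development, and it was lower at 12 h and 18 h. Over the array 4.77% of probes were lower at 12 h and 11.3% at 18 h. Bmp7 had -0.46, -0.35 and -0.69 at 12 h and -0.66, -0.41 and -0.44 at 18 h, with means of -0.50 ± 0.18 and -0.50 ± 0.14 (SD, n = 3, adjusted p = 0.0149 and 0.00604). At 1, 3 and 6 h Bmp7 had means of -0.30, -0.33 and -0.26, and all 15 of its arrays lay below 0. Without array 1 the 18 h mean of Bmp7 was -0.42 (adjusted p = 0.0525), and at 12 h it was -0.52 without array 1 (adjusted p = 0.0671) and -0.41 without array 3 (adjusted p = 0.0762).

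The other 9 ligands had 18 h means between -0.58 and 0.44 and none was called at any time. Bmp6, known as a regulator of iron balance, was at -0.58 and had unequal arrays at 18 h (-0.68, 0.25 and -1.32, adjusted p = 0.111). Gdf10, known to promote axon sprouting after stroke, was at 0.44, with 0.78, -0.11 and 0.66 (adjusted p = 0.146). Gdf15, a ligand made in cell stress, had its highest mean at 6 h, with 0.46, 0.17 and 0.78 and a mean of 0.47 (adjusted p = 0.191). Bmp2 and Bmp4 are the classical BMPs of bone formation and dorsal patterning. Bmp2 was lowest at 1 h, at -0.49 (-0.48, -0.38 and -0.61, adjusted p = 0.251), and lay at -0.13 at 18 h. The 18 h mean of Bmp4 was 0.24. The oocyte factors Bmp15 and Gdf9 were at -0.21 and -0.12, and Gdf11, a relative of myostatin, was at -0.16. Bmp3, which opposes other BMPs, had a mean of 0.31 at 18 h and of -0.83 at 12 h, where array 2 was at -2.31 and the other arrays at 0.14 and -0.33. Bmp1 is not a ligand but a protease that cleaves procollagen and the BMP antagonist chordin. Its values at 18 h were 0.62, 0.13 and 0.92, with a mean of 0.56 ± 0.40 (SD, n = 3, adjusted p = 0.0509).

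**Figure D3:**
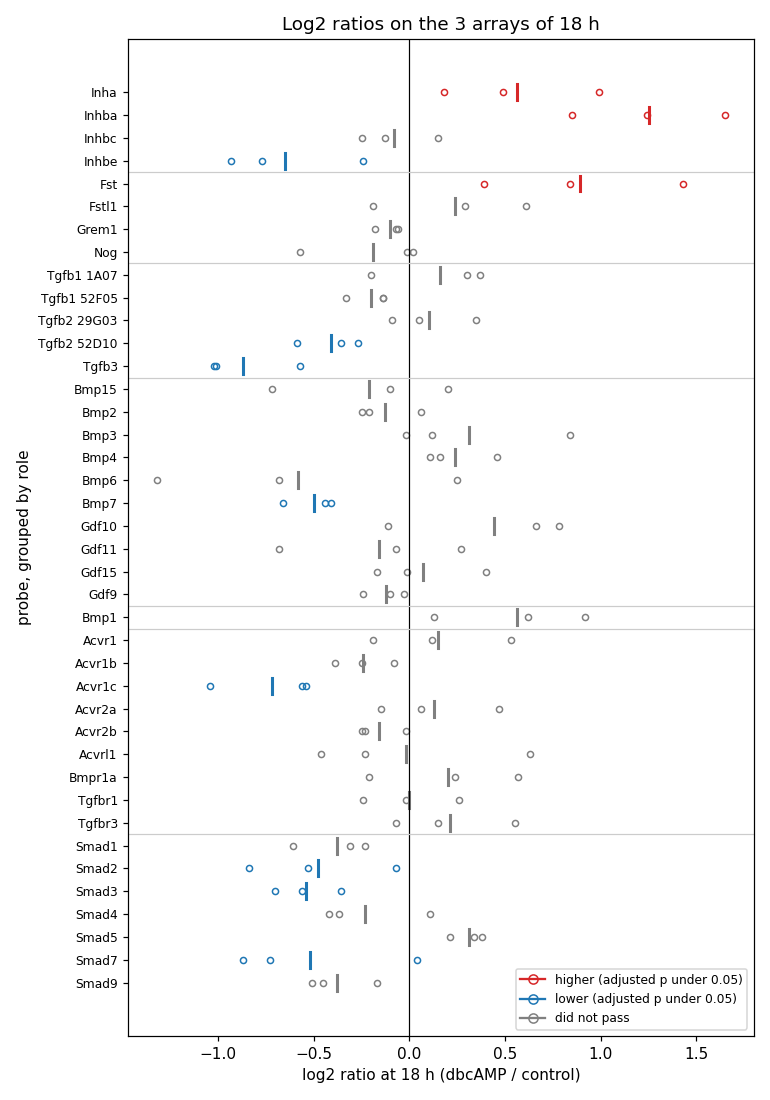
Log2 ratio (dbcAMP over control) on each of the 3 arrays of 18 h (circles) and their mean (bars) for the 40 probes, grouped by role; red is higher and blue lower at an adjusted p under 0.05, grey did not pass. Inhba has the highest mean plotted, 1.25, and Tgfb3 the lowest, -0.87. Of 7 SMAD probes 3 are blue, where 11.3% of all probes on the array were lower.

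Of 9 receptors, 1 was called, Acvr1c, which was lower at 18 h, where 11.3% of all probes were lower. Acvr1c encodes ALK7, a type I receptor for activins, Nodal and some GDFs. At 18 h its log2 ratios were -0.54, -0.56 and -1.04, with a mean of -0.72 ± 0.28 (SD, n = 3, 0.609-fold, adjusted p = 0.00431). At 6 h all arrays of Acvr1c were above 0, at 0.40, 0.15 and 0.22. The difference of 18 h minus 6 h was -0.97 (SE 0.21, adjusted p = 0.0312), and -0.98, -1.10 and -0.83 without the arrays numbered 1, 2 and 3 (adjusted p = 0.105, 0.0694 and 0.109). The difference of 18 h minus 1 h was -0.62 and did not pass (SE 0.21, adjusted p = 0.152).

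The remaining receptors were called at no time. The type I receptors of activin and TGF-beta, Acvr1b and Tgfbr1, had 18 h means of -0.24 (-0.39, -0.08 and -0.25, adjusted p = 0.0852) and 0.00. The activin type II receptors Acvr2a and Acvr2b had 0.13 and -0.16. The type I receptors Acvr1, Acvrl1 and Bmpr1a, which signal mainly to the BMP SMADs, had 0.15, -0.02 and 0.20, and Tgfbr3, the co-receptor betaglycan, had 0.21. Bmpr1a stood at 0.55 at 6 h, with array 2 far above the others (0.16, 1.32 and 0.17, adjusted p = 0.223).

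Of 7 SMADs, Smad2, Smad3 and Smad7 were called lower in dbcAMP cells than in control at 18 h, none was called higher, and none was called in a difference between times. Over the array 11.3% of probes were lower and 10.6% higher at 18 h. These 3 SMADs are on plate 37, and 23.2% of probes on plates 36 to 53 were lower. After the plate medians were subtracted, only Smad3 of them was called. The SMAD median was -0.38 at 18 h (-0.27 after the plate medians were subtracted) and -0.44 at 12 h, against medians of 0.01 and -0.00 over all probes, and between -0.10 and -0.01 at 1, 3 and 6 h. Smad3 had -0.36, -0.56 and -0.70 at 18 h, with a mean of -0.54 ± 0.17 (SD, n = 3, adjusted p = 0.00475). Smad3 was already lower at 1 h, with -0.43, -0.70 and -0.53 and a mean of -0.55 ± 0.14 (SD, n = 3, adjusted p = 0.0234), and its means were -0.23, -0.09 and -0.33 at 3, 6 and 12 h. The 18 h and 1 h means of Smad3 differed by 0.01 (SE 0.17, adjusted p = 0.984). The 1 h mean was -0.62, -0.48 and -0.57 without arrays 1, 2 and 3 (adjusted p = 0.0943, 0.251 and 0.137).

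Smad2, which with Smad3 carries the activin and TGF-beta signal, had -0.84, -0.07 and -0.53 at 18 h, a mean of -0.48 ± 0.39 (SD, n = 3, adjusted p = 0.0403). Smad2 lay below 0 on all 15 arrays, with means of -0.45, -0.34, -0.25 and -0.47 at 1, 3, 6 and 12 h. Smad7, the inhibitory SMAD, had -0.73, -0.87 and 0.04 at 18 h, a mean of -0.52 ± 0.49 (SD, n = 3, adjusted p = 0.0461). Both calls were lost without some single arrays. The 18 h mean of Smad2 was -0.30 without array 1 (adjusted p = 0.278) and -0.46 without array 3 (adjusted p = 0.132), and that of Smad7 was -0.41 without array 1 (adjusted p = 0.216) and -0.35 without array 2 (adjusted p = 0.267).

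The BMP SMADs Smad1 and Smad9 were each at -0.38 at 18 h and below 0 on all 3 arrays (adjusted p = 0.076 and 0.0731), and Smad5 was at 0.31 (0.21, 0.38 and 0.34, adjusted p = 0.554). Smad5 had -2.14 on array 2 of 12 h, against 0.46 and 0.14 on the other arrays of that time, and its SE in the fit was 0.34. Smad4, the common partner, had 0.11, -0.42 and -0.37 at 18 h (mean -0.23, adjusted p = 0.338) and -0.53, -1.05 and 0.01 at 12 h (mean -0.52, adjusted p = 0.0618).

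Some of the lower genes were low at every time. Grem1, Tgfb2 (probe 52D10), Tgfb3, Bmp7 and Smad2 lay below 0 on all 15 arrays, 5 of 40 probes (12.5%), where 3.66% of all probes with 15 ratios did. No member lay above 0 on all 15 arrays, where 2.35% of all probes did. None of these 5 was called in a difference between times. Within a time a constant dye bias and an early effect of dbcAMP cannot be told apart for them. Grem1 came from plate 43 and Tgfb2 probe 52D10 and Tgfb3 from plate 52, plates whose medians were below 0 at every time (-0.51 to -0.13 and -0.34 to -0.13). After the plate medians were subtracted, 0 of the 40 probes lay below 0 on all 15 arrays, against 2.70% of all probes, and 0 lay above 0 on all 15, against 2.33%.

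**Figure D4:**
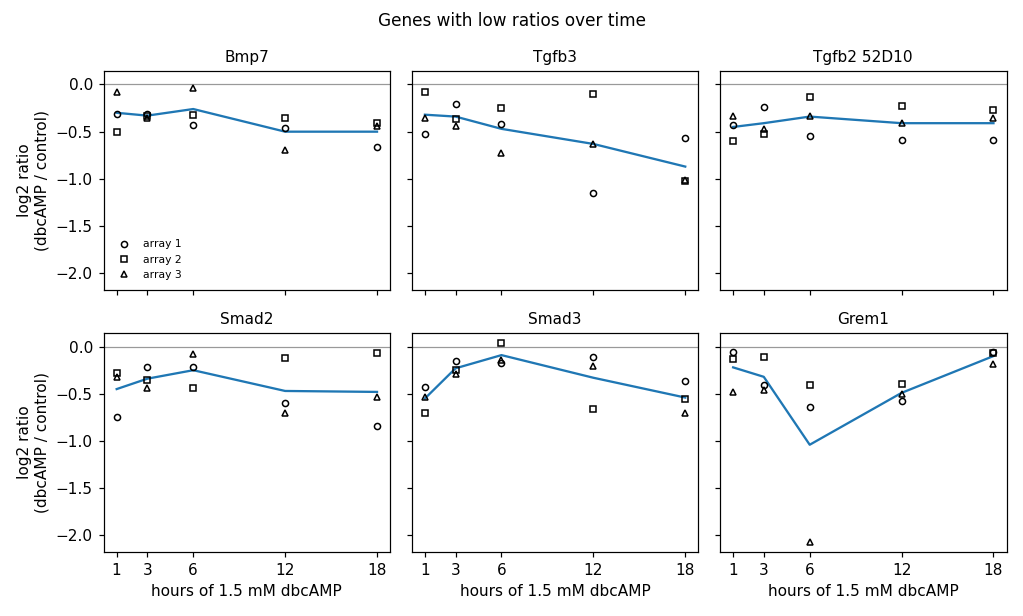
Log2 ratio (dbcAMP over control) of 6 probes with low ratios against hours of 1.5 mM dbcAMP; symbols are single arrays, 3 per time, and the line joins the means. All but Smad3, which has 1 array at 0.04 at 6 h, lie below 0 on every array, and array 3 of 6 h is the lowest array of Grem1, at -2.07.

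Calls at 18 h also differed by the part of the array a probe came from. Probe names give a plate number from 1 to 53, and on plates 1 to 35, 14.2% of probes were higher and 5.43% lower at 18 h, while on plates 36 to 53, 3.53% were higher and 23.2% lower. Of the 40 probes, 27 came from plates 36 to 53, and 2 of them (7.41%) were higher, Inha and Fst, and 7 (25.9%) were lower. The 25.9% lower is near the 23.2% of those plates. The other 13 probes came from plates 1 to 35, with Inhba higher and Bmp7 lower. Plate 37 held 15 of the probes, namely 8 of 9 receptors, 6 of 7 SMADs and Gdf11, and its median at 18 h was -0.13. Plate 52, with Tgfb3, Tgfb2 probe 52D10 and Tgfb1 probe 52F05, had a median of -0.34.

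After the plate medians were subtracted from every array, 3 probes were higher and 5 lower at 18 h. With the same subtraction, 1003 of 5006 probes over the array were called at 18 h in either direction. Inhba was then at 1.27 (adjusted p = 0.000493), Fst at 1.04 (adjusted p = 0.000348) and Inha at 0.60 (adjusted p = 0.0134). Inhbe, Bmp7, Acvr1c, Tgfb3 and Smad3 stayed lower, at -0.60, -0.60, -0.60, -0.54 and -0.43 (adjusted p = 0.00776, 0.00451, 0.0111, 0.0386 and 0.0212). Smad2 and Smad7 did not pass, at -0.37 and -0.41 (adjusted p = 0.117 and 0.135). Tgfb2 probe 52D10 was at -0.08 (adjusted p = 0.696). At 6 h Grem1 was at -0.57 (adjusted p = 0.0528), and at 12 h Inhba was higher and Bmp7 lower. What made the plates differ was not tested.

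**Figure D5:**
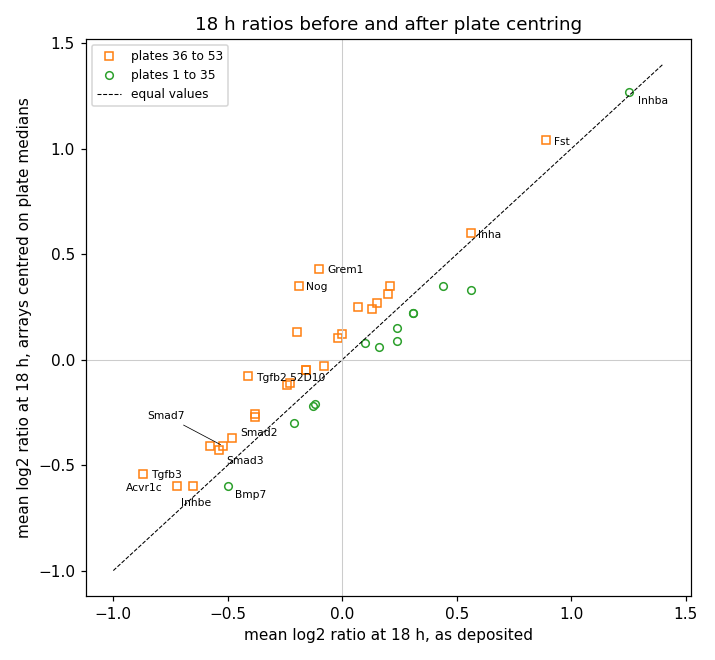
Mean log2 ratio at 18 h (dbcAMP over control) as deposited (x axis) and after subtraction of the plate medians of each array (y axis) for the 40 probes; orange squares are plates 36 to 53, green circles plates 1 to 35, and the dashed line marks equal values. Inhba is at 1.25 as deposited and 1.27 after subtraction, and Tgfb2 probe 52D10 is at -0.41 and -0.08.

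The counts at 18 h depended on the estimate of spread. From the 3 arrays of 18 h alone, limma called none of the 40 probes, against 183 of 5006 over the array. It gave 10 of the 40 and 1201 of the 5006 an unadjusted p under 0.05. The methods' t-test also called none of the 40 after adjustment, and 1 of the 5006. It gave 7 of the 40 and 907 of the 5006 an unadjusted p under 0.05. With all arrays scaled to a common spread 4 of the 40 were called, Fst higher and Inhbe, Tgfb3 and Acvr1c lower, against 422 of 5006. Without array 1 of 18 h 6 were called: Inhba, Inhbe, Fst, Tgfb3, Acvr1c and Smad3. Without array 2 of 18 h 12 were called, with Bmp6, Gdf10 and Bmp1 among them, and without array 3 there were 9. Over the array 808 of 4959, 918 of 4953 and 915 of 4956 probes were called without arrays 1, 2 and 3.

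Other genes of the pathway were taken from a list of 85 symbols, of which 41 were on the array and tested. In this list and in the marker lists below, a gene counts as called when any of its probes is, while the shares beside the counts are of probes. At 18 h, 6 of the 41 genes were higher and 4 lower, against the 10.6% and 11.3% of all probes, and their median was 0.01. The higher genes were Cdkn1a, a cell cycle inhibitor (0.61, adjusted p = 0.000472), Snai1, a repressor of epithelial genes (0.70, adjusted p = 0.00673), Myc (0.58, adjusted p = 0.00135), Timp1, an inhibitor of metalloproteases (0.37, adjusted p = 0.0157), Klf10, a TGF-beta-inducible transcription factor (0.35, adjusted p = 0.0443), and Htra1, a protease (0.41, adjusted p = 0.0218). The lower genes were Runx2, a bone transcription factor (-1.48, adjusted p = 0.00128), the collagen gene Col1a1 (-0.53, adjusted p = 0.00387), the smooth muscle actin gene Acta2 (-0.52, adjusted p = 0.0127) and Dcn, which encodes decorin, a proteoglycan that binds TGF-beta (-0.42, adjusted p = 0.00757). The target genes among them moved in both directions. Second probes of Cdkn1a, Col1a1 and Acta2 did not pass, at 0.34, -0.14 and -0.26.

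By role, 5 of 21 target genes were higher and 3 lower at 18 h, 1 of 13 extracellular and membrane regulators was higher and 1 lower, and none of 6 intracellular regulators was called, where 10.6% of all probes were higher and 11.3% lower. The single other ligand on the array, Mstn (myostatin), was at 0.03. The BMP target genes Id1, Id2 and Id3 did not pass, at -0.11, 0.66 and 0.02 (adjusted p = 0.714, 0.249 and 0.956). At 6 h, 5 of the 41 genes were higher and none lower, against 1.84% higher and 2.35% lower among all probes. They were Snai1 (0.94), Dab2 (0.88), Junb (0.72), Timp1 (0.57) and Myc (0.44). The second probe of Dab2 did not pass at 6 h (0.88, adjusted p = 0.0526). Whether these genes followed Inhba was not tested. After the plate medians were subtracted, 7 of the 41 were higher and 2 lower at 18 h, without array 1 there were 3 higher and 4 lower, and without array 2 there were 4 higher and 6 lower.

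Markers of the cell types a ganglion culture can hold are given beside these results, for a time when 10.6% of all probes were higher and 11.3% lower. Among sensory neuron genes 2 of 12 were higher at 18 h, Elavl4 and Nefl, and 1 was lower, Uchl1. The median of the list lay between -0.05 and 0.07 on the 3 arrays. Among Schwann cell and satellite glia genes 3 of 13 were higher, Egr2, Gfap and Kcnj10. There 3 were lower, Cnp, Ngfr and S100b, with array medians of -0.14 to -0.04. Among fibroblast genes 1 of 10 was higher, Pdgfra, and 3 were lower, Col1a1, Dcn and Vim, with array medians of -0.33 to -0.13. Second probes of Nefl, S100b and Col1a1 did not pass. Of 6 macrophage genes 1 was lower, Lyz2, with array medians of -0.40 to 0.03. Of 7 endothelial genes none was called by limma, with array medians of 0.01 to 0.18. Col1a1 and Dcn belong to the pathway list too. The part of these shifts in the ratios of the TGF-beta family was not tested.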

How the data were processed

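Spotted-oligonucleotide arrays were hybridised with dbcAMP RNA (Cy5) and control RNA (Cy3), both labelled with the Genisphere 3DNA dendrimer system. The authors deposited, for every array, linear ratios of treated over control signal, 1 per probe. Background correction, normalization and filters: not given in the sources used here. Ratios were taken to log2 without further centring. Probes were named through the platform annotation, which can be old. Means per time and all 10 differences between times were tested (two-sided) with limma 3.58.1 in R 4.3.3 (lmFit, eBayes, 1 mean per time, 15 arrays). A probe needed ratios on at least 2 of the 3 arrays, and the threshold was an adjusted p of 0.05. The fit was tested on simulated data in which a probe had the same spread on all 15 arrays. The wider spread of the 18 h arrays was therefore not covered by it. The members, the lists of other pathway genes and markers and the tests were chosen with earlier results of these data known, and all differences but that of 18 h and 1 h after the ratios of Inhba had been seen. All members called at any time, or in the difference between 18 h and 1 h, are named with values. Other pathway genes are named where called at 18 h, and the Id genes, Mstn and those called at 6 h were added after their values were seen. Alternatives were centring on array or plate medians, scaling to a common spread, array weights, a fit of each time by itself, a replicate block, complete probes only, the methods' t-test, leaving out each array and, added later, leaving out 3 arrays of wide spread. Promoter windows were read from RefSeq (GRCr8). Plots used matplotlib 3.10.9 with Python 3.11.15.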

Additional observations from a re-analysis of the deposited data

Results flagged for a closer look

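In 5 cases the ratio of a gene differed between times by the test of the difference itself. For Inhba these were 2.34 at 6 h minus 1 h (adjusted p = 0.00129), 1.41 at 12 h minus 1 h (adjusted p = 0.0498) and 1.38 at 18 h minus 1 h (adjusted p = 0.0161), where 0.139%, 0.300% and 2.74% of all probes were called. All arrays of the later time lay above all arrays of 1 h in each. For Acvr1c the 18 h minus 6 h difference was -0.97 (adjusted p = 0.0312), with no overlap between the arrays of both times, in a comparison where 2.74% of all probes were called. For Inhbe the 18 h minus 6 h difference was -0.75 (adjusted p = 0.0498), again with no overlap, as its highest array at 18 h was -0.24 and its lowest at 6 h was -0.10. The lack of overlap comes from the same arrays that passed the test, so it is no separate support. The share of all probes without overlap was not counted. The call of Inhba at 6 h minus 1 h held under 11 of 11 other settings and that at 18 h minus 1 h under 7 of 11. It held under 4 of 10 for Inhba at 12 h minus 1 h, 4 of 11 for Acvr1c and 2 of 11 for Inhbe. No group had more than 3 arrays, so single arrays were not tested for standing apart.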

How the results depend on the processing

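Counts of called probes changed with the handling of spread. Centring on array medians and requiring complete probes left the counts at 1, 0, 2, 4 and 11 at 1, 3, 6, 12 and 18 h, although centring took the 18 h minus 6 h difference of Inhbe to an adjusted p of 0.0511 and complete probes took the 12 h minus 1 h difference of Inhba to 0.0526. With arrays scaled to a common spread the counts were 5, 4, 2, 2 and 4, and with array weights 6, 6, 2, 2 and 7. Over the array, scaling called 322, 442, 275, 256 and 422 of the 5006 to 5058 probes tested. Array weights called 370, 560, 278, 180 and 664, and the main fit 118, 145, 212, 430 and 1101. From the arrays of each time alone the member counts were 0, 3, 1, 0 and 0, against 140, 353, 10, 5 and 183 over the array. That limma fit gave 8, 12, 4, 7 and 10 members an unadjusted p under 0.05, and 907, 1134, 583, 665 and 1201 of all probes. By the methods' t-test all member counts were 0, against 0, 0, 0, 0 and 1 over the array. The t-test gave 7, 9, 4, 3 and 7 members an unadjusted p under 0.05, and 654, 758, 461, 489 and 907 of all probes. Centred on plate medians the member counts were 1, 0, 1, 2 and 8, against 79, 124, 163, 326 and 1003 over the array. Without the 3 wide arrays of 6 h and 12 h the member counts were 2, 0, 1 and 14 at 1, 3, 6 and 18 h. Over the array 179, 211, 146 and 1491 probes were called then. The test of 12 h was not run, since 1 array would be left. Leaving out 1 array of a time gave 0 to 0 at 1 h, 0 to 0 at 3 h, 1 to 2 at 6 h (1 without array 3), 1 to 4 at 12 h (1 without array 1) and 6 to 12 at 18 h (6 without array 1). Over the array it gave 24 to 44, 53 to 79, 103 to 149, 142 to 543 and 808 to 918.

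In the difference of 18 h minus 1 h, 1 probe was called. The count was 0 when scaled or with the arrays of both times alone, 2 when centred on plate medians or with array weights (Fst with Inhba), and 0 to 1 when all arrays of a replicate number were left out. Over the array the main fit called 137 probes in this difference. The other settings called 11, 48, 105, 137 and 40 to 46 in the same order. Of the other pathway genes, 10 were called at 18 h. There were 3 when scaled, 5 with array weights, 0 from the 18 h arrays alone, 0 by the methods' t-test, and 7 to 10 without 1 array.

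With the replicate block 1 probe was called at 3 h (Inhba), 3 at 12 h, 12 at 18 h (Smad9 added), 1 at 1 h, 2 at 6 h and 1 in the difference of 18 h minus 1 h. Over the array the block gave 139, 394, 1088, 99, 185 and 102 calls in the same order. The block raised the adjusted p of the 18 h minus 6 h difference to 0.0807 for Inhbe and 0.056 for Acvr1c. Arrays with the same replicate number did not deviate together, as 0 of 30 pairs had a correlation over 0.1 (median -0.01), against 1 of 60 pairs with different numbers (median 0.00). The numbers were therefore not taken as pairs.

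Across these alternatives none of the 23 called ratios and differences reversed. Means that were not called did change sign under centring on plate medians, for 4, 2, 6, 3 and 4 of the 40 probes at 1, 3, 6, 12 and 18 h, those of 18 h being Grem1, Nog, Tgfb1 probe 52F05 and Acvrl1. With array weights 7 did at 6 h, and at most 2 at any time did so by centring on array medians or by scaling. The rise of Inhba at 6 h was called in 11 of 12, the exception being the methods' t-test (adjusted p = 0.438), and its difference of 6 h minus 1 h in 11 of 11. The call for Tgfb2 probe 52D10 at 12 h held in 2 of 11 and that of the 18 h minus 6 h difference of Inhbe in 2 of 11. The causes were not tested. Without scanner intensities, signal over background is unknown and dim probes could not be told from bright ones.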
